A study of Mus musculus with 6 samples.

Results

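The Elavl genes encode the Hu proteins, and the NOVA1 and NOVA2 binding sites on the transcripts of Elavl1, Elavl2, Elavl3 and Elavl4 are described here. A binding site, or cluster, was taken as a member when it shared 1 nt or more with the annotated span of one of the 4 genes, strand included. This rule gave 33 clusters of 46579 in all, made up of 6 of the 9988 NOVA1 clusters and 27 of the 36591 NOVA2 clusters. Both lists came from HITS-CLIP, in which RNA is crosslinked to a protein by ultraviolet light in the tissue, recovered with an antibody and sequenced as short tags. The tissue was cortex of wild-type CD1 mice at embryonic day 18.5 for both proteins, with 3 libraries per protein, and no mutant or treated group was part of these lists. The authors pooled the libraries of each protein into 1 list and kept clusters with at least 10 tags. A cluster therefore has 1 tag count per protein, the single libraries were not analysed here, and differences between values could not be compared with replicate spread. Wilson 95% intervals are given for shares, and they cover counting error only.

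Hu proteins bind AU-rich and U-rich sequences in RNA. In the nucleus they influence splicing and the choice of polyadenylation site, and in the cytoplasm they stabilise mRNAs and affect their translation. Elavl2 (HuB), Elavl3 (HuC) and Elavl4 (HuD) are expressed in neurons, whereas Elavl1 (HuR) is found in nearly all cell types, so the family as listed is not neuronal throughout. NOVA1 and NOVA2 are KH-domain proteins of neurons that bind YCAY (Y is C or U) and regulate alternative splicing. NOVA sites in the 3′ UTR have also been linked to polyadenylation, stability and localisation of mRNAs.

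The sequences of the strongest sites were read from the NCBIM37 genome (mm9) on the minus strand, on which all 4 genes lie. For each gene the 30 nt with the most YCAY starts are shown from the 3′ UTR and the intron cluster of highest tag count, with YCAY in capitals.
Elavl2 3′ UTR, in both lists, chr4:90919460-90919489: auucuuuaauuagcuuuguguuugguuuac
Elavl1 3′ UTR, NOVA2, chr8:4287965-4287994: auuuaguucuugauaUCAUgguaugauagc
Elavl1 3′ UTR, NOVA1, chr8:4287669-4287698: agugcugcucaguaccUCAUuCCAUcCCAU
Elavl3 3′ UTR, NOVA2, chr9:21820919-21820948: ugggagccccaaaccuucaacCCACcCCAC
Elavl2 intron, in both lists, chr4:91027694-91027723: ucugcugguugagUCAUcUCACugguCCAC
Elavl4 intron, NOVA1, chr4:109886428-109886457: caagcagauguUCAUucaaccCCAUuUCAC
Elavl4 intron, NOVA2, chr4:110021616-110021645: cacauaauaugacUCAUuUCAUcuuuugau
Elavl1 intron, NOVA2, chr8:4314432-4314461: uuUCACaUCAUguacuccagucCCACUCAU
The first of these differs from the rest by holding no YCAY at all. It is the site of highest tag count in the family. The others hold between 1 and 4 overlapping or separate YCAY starts. The Elavl1 intron sequence comes from a site with further copies in the genome, described further on.

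NOVA2 clusters were spread unevenly over the 4 genes, and Elavl2 held most of them. Elavl2 had 20 NOVA2 clusters with 620 tags, Elavl1 had 4 with 73 tags, Elavl4 had 2 with 28 tags, and Elavl3 had 1 with 12 tags. Elavl2 thus accounted for 74.1% of the family's NOVA2 clusters and for 84.6% of their tags. NOVA1 numbers were lower, with 4 clusters and 65 tags in Elavl2, 1 cluster and 14 tags in Elavl1, and 1 cluster and 12 tags in Elavl4. Elavl2 again came first, while Elavl1 and Elavl4 were level by clusters and close by tags. Elavl3 had 0 NOVA1 clusters, which says only that no position met both limits of the list, 10 tags and tags from 2 or more libraries. A tag count rises both with the amount of an RNA and with its binding, and RNA levels were not analysed here. Fewer cells of a type and less RNA per cell also cannot be told apart in whole cortex.

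**Figure D1:**
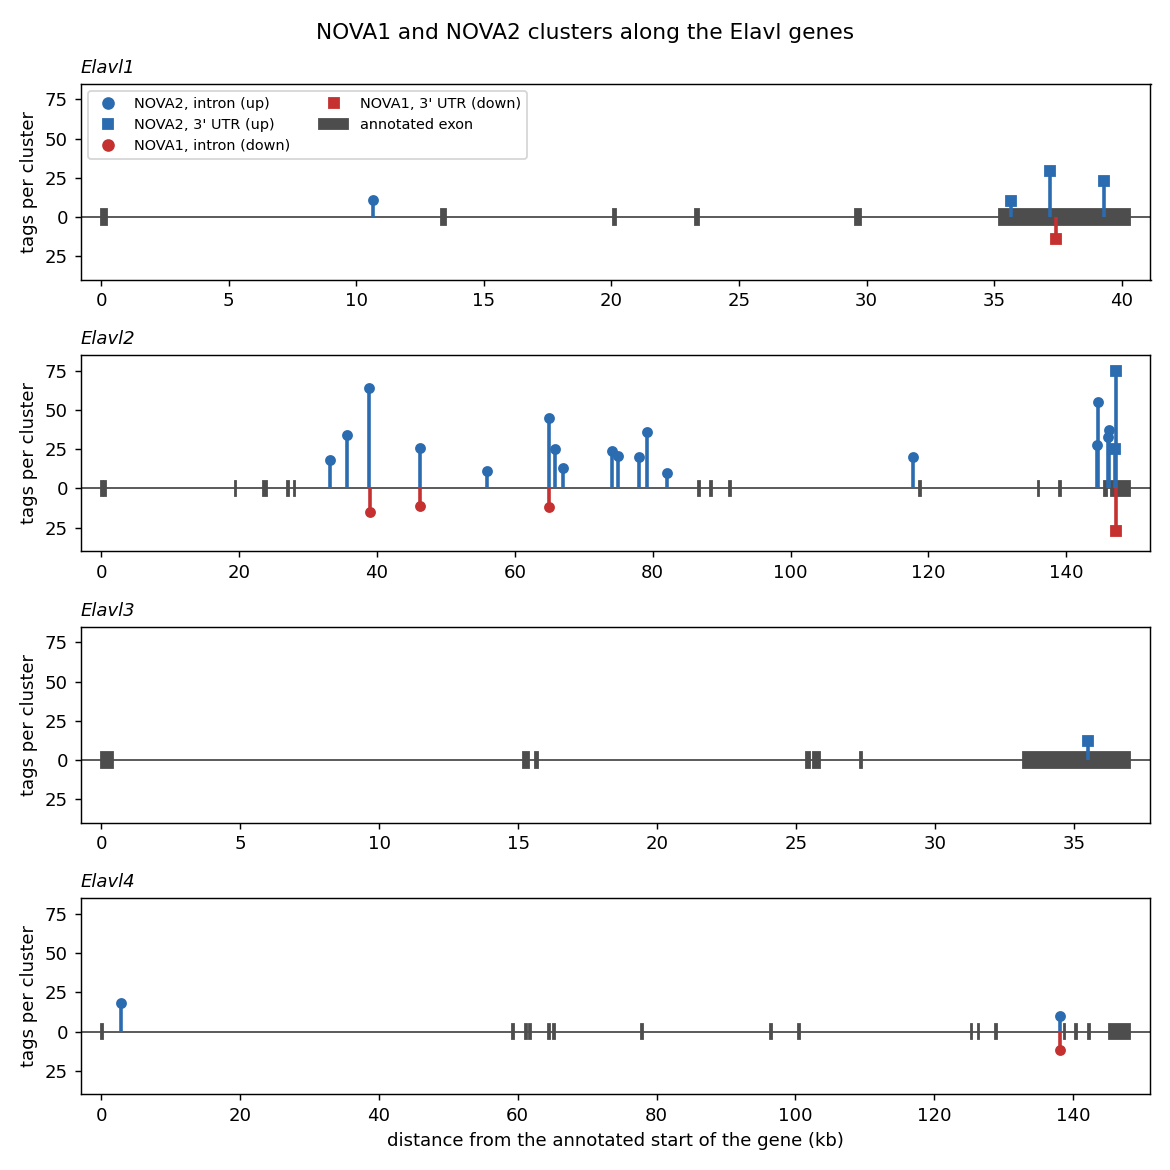
Each panel shows 1 Elavl gene from its annotated start (left) to its end, with distance in kb on the horizontal axis and grey boxes for annotated exons, which are widened where too narrow to see. Blue stems point up to the tags of NOVA2 clusters and red stems point down to those of NOVA1, with circles for introns and squares for the 3′ UTR, and Elavl2 carries 20 of the 27 NOVA2 stems.

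Gene length does not set Elavl2 apart from Elavl4. Elavl2 (ENSMUSG00000008489.10, chr4:90917454-91066675) spans 149222 nt and Elavl4 (ENSMUSG00000028546.11, chr4:109876327-110024514) spans 148188 nt. Their annotated introns are also alike, at 143765 and 142801 nt, as are their 3′ UTRs, at 2480 and 2613 nt. Over these like lengths, Elavl2 held 10 times as many NOVA2 clusters and 22.1 times as many NOVA2 tags. The NOVA2 density was 13.4 clusters per 100 kb in Elavl2 and 1.35 in Elavl4, against a median of 5.08 over the 5076 genes with a NOVA2 cluster. Of those genes, 302 (5.95%) had as many clusters as Elavl2 and 15.2% were as dense. Elavl4 lay at the other end, since 89.4% of the genes with a NOVA2 cluster were as dense or denser.

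The short genes Elavl1 and Elavl3 differed less from each other. Elavl1 (ENSMUSG00000040028.9, chr8:4284782-4325100) spans 40319 nt and had 9.92 NOVA2 clusters per 100 kb. Elavl3 (ENSMUSG00000003410.7, chr9:21819449-21856467) spans 37019 nt and had 2.70. With 4 clusters against 1, the order of these 2 genes rests on few sites.

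All member clusters lay in introns or 3′ UTRs. For NOVA2, 21 of 27 were intronic (77.8%, 59.2 to 89.4), beside 74.6% of all NOVA2 clusters, and 6 were in a 3′ UTR (22.2%, 10.6 to 40.8), beside 12.1% of all. For NOVA1, 4 of 6 were intronic (66.7%, 30 to 90.3), beside 40.3% of all NOVA1 clusters, and 2 were in a 3′ UTR (33.3%, 9.68 to 70.0), beside 37.7% of all. Each of these 4 intervals holds the share over the whole list, so a difference in class between the family and the lists was not detectable at this number of clusters. Coding sequence, 5′ UTR and noncoding exons held 0 of the 33 clusters.

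By number, Elavl2 clusters were mostly intronic and Elavl1 clusters mostly in the 3′ UTR, but per kb the 3′ UTR was the denser class in both genes. In Elavl2, introns held 18 of 20 NOVA2 clusters with 520 of the 620 tags, or 0.125 clusters per kb of intron. Its 3′ UTR held the other two, with 100 tags, or 0.806 clusters per kb. In Elavl1 the 3′ UTR held 3 of 4 NOVA2 clusters with 62 of the 73 tags, at 0.622 clusters per kb over 4821 nt. Its 34289 nt of intron held 1, at 0.0292 per kb. No such densities by class are given over all genes, so a denser 3′ UTR is not read as particular to Elavl1 or Elavl2. Elavl3 had its only cluster in the 3′ UTR (0.286 per kb) and 0 in 31992 nt of intron. Elavl4 had both NOVA2 clusters in introns (0.0140 per kb) and 0 in its 3′ UTR. Elavl1, Elavl3 and Elavl4 have too few clusters for their make-up to be compared further.

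Clusters of NOVA1 in the family mostly lay on NOVA2 sites, while most NOVA2 sites had no NOVA1 cluster. Of the 6 NOVA1 clusters, 5 overlapped a NOVA2 cluster (83.3%, 43.6 to 97.0), beside 80.1% of all NOVA1 clusters. In reverse, 5 of 27 NOVA2 clusters overlapped a NOVA1 cluster (18.5%, 8.18 to 36.7), beside 22.1% of all. Both shares lay near those of the whole lists. All 4 NOVA1 intron clusters were shared, where 95.5% of NOVA1 intron clusters were shared in the whole list. Of the 2 NOVA1 clusters in a 3′ UTR, 1 was shared, where the whole list gave 73.9%.

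Read from the NOVA2 side, intron members were shared no less often than their class. The 3′ UTR members were shared less often than theirs, but that share rests on only 6 clusters. No interval is given for these shares by class. In introns, 4 of 21 NOVA2 clusters were shared, beside 14.1% of all NOVA2 intron clusters. In 3′ UTRs, 1 of 6 was shared, beside 64.5% of all NOVA2 3′ UTR clusters. The strength of the sites can be taken into the count. At the median NOVA1 to NOVA2 ratio of shared 3′ UTR positions, 13.2 NOVA2 tags correspond to the 10 NOVA1 tags that a cluster needs. Of the 4 member clusters in a 3′ UTR above that count, 1 was shared, beside 73.7% of all such clusters. The same reckoning for introns gave 41.0 NOVA2 tags, which 3 member clusters reached and 2 of them were shared, beside 52.9% of all. These thresholds were chosen after the values were seen, and they come from positions that had passed 10 tags in both lists. No test was run on these few sites, since clusters of a pooled list are not replicates.

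The 3′ UTR of Elavl2 held the strongest site of the family. NOVA2 had 75 tags at chr4:90919395-90919489, which starts 441 nt after the stop codon, and 12.8% of NOVA2 3′ UTR clusters had as many. NOVA1 had 27 tags at chr4:90919427-90919489, the highest NOVA1 count of the family, which 31.9% of NOVA1 3′ UTR clusters reached. Both clusters begin at the same nucleotide on the transcript. A further NOVA2 cluster of 25 tags lay closer to the stop codon, 244 nt after it, at chr4:90919563-90919686. It did not overlap the NOVA1 cluster and was 73 nt away from it.

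None of these 3 clusters in the Elavl2 3′ UTR held a complete YCAY. Such clusters are rare in the lists, at 1.86% of NOVA1 and 1.99% of NOVA2 3′ UTR clusters. A YCAY did lie across the border of the shared site, beginning 2 nt before its first nucleotide, and the next one downstream ended 241 nt past the end of the NOVA2 cluster. Around the 25-tag cluster the nearest YCAY began 14 nt before it on one side and ended 20 nt past it on the other. Its NOVA2 cluster of 75 tags contains both UUUUU and AUUUA.

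In Elavl1 the NOVA1 and NOVA2 sites in the 3′ UTR did not coincide. The NOVA2 clusters had 29 tags at chr8:4287849-4287994, 23 tags at chr8:4285728-4285876 and 10 tags at chr8:4289387-4289493, and they start 1605, 3723 and 106 nt after the stop codon. The single NOVA1 cluster, with 14 tags at chr8:4287641-4287708, starts 1891 nt after the stop codon and lies 140 nt from the nearest of them. It was the only NOVA1 cluster of the family without a NOVA2 partner. Its 68 nt hold 3 YCAY starts, all of them in the 30 nt shown above.

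The NOVA2 cluster of 23 tags far along the Elavl1 3′ UTR contained a run of AUUUA pentamers, the core of AU-rich elements, which Hu proteins bind. The cluster held 9 AUUUA starts beside 3 YCAY starts. This stretch, chosen after its letters were seen, carries 5 of them in capitals, and neighbouring pentamers share an A.
Elavl1 3′ UTR, NOVA2, chr8:4285778-4285807: auuAUUUAUUUAUUUAUUUAuuuuuAUUUA
AUUUA (searched on the strand of the transcript alone) was present in 3 of the 6 NOVA2 3′ UTR clusters of the family, beside 28.1% of all NOVA2 3′ UTR clusters. UUUUU, which can overlap AUUUA by the U letters, was present in 4 of 6 (66.7%), beside 39.5%. In introns each was present in 5 of 21 member clusters (23.8%), beside 25.1% for AUUUA and 30.9% for UUUUU. These are matches of letters and were not tested as sites of any protein.

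The only site in Elavl3 was a NOVA2 cluster of 12 tags at chr9:21820906-21821006, which starts 1940 nt after the stop codon. It held 4 YCAY starts, and 84.0% of NOVA2 3′ UTR clusters had as many tags. The site was therefore among the weaker ones of its class.

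The intron sites of Elavl2 fell into separate places along the gene. Most lay in the 58496-nt intron at chr4:90980095-91038590, which held 13 of the 18 NOVA2 intron clusters with 347 tags and all 3 NOVA1 intron clusters with 38 tags. The NOVA2 counts ranged from 10 to 64, and the density was 2.22 clusters per 10 kb. The longest intron of Elavl4 that held a cluster is of like size, at 59074 nt, and held 1 NOVA2 cluster. An Elavl2 intron of 27293 nt had a single NOVA2 cluster of 20 tags at chr4:90948901-90949022. The remaining 4 lay beside a short exon near the end of the gene described further on.

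The NOVA1 sites in the long Elavl2 intron coincided with NOVA2 sites. At chr4:91027673-91027843 NOVA2 had 64 tags and NOVA1 15. At chr4:91001588-91001761 NOVA2 had 45 and NOVA1 12, and at chr4:91020473-91020534 NOVA2 had 26 and NOVA1 11. The NOVA2 sites with 64 and 45 tags were also those of highest NOVA2 count in that intron.

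Elavl2, Elavl3 and Elavl4 each have a coding exon of 39 nt before the last exon, in the hinge between the second and the third RNA-binding domain, and Elavl1 has none. In the annotation this exon is included in 6 of 10 coding transcripts of Elavl2, 6 of 7 of Elavl4 and 1 of 1 of Elavl3, and in each gene it follows an exon of 226 nt. In Elavl2 (chr4:90920832-90920870) it was flanked by 4 NOVA2 clusters. Upstream, NOVA2 had 28 tags at chr4:90922158-90922311 and 55 tags at chr4:90922001-90922138, which end 1287 and 1130 nt before the exon. Downstream, it had 33 tags at chr4:90920540-90920704 and 37 tags at chr4:90920357-90920502, which begin 127 and 329 nt after it. The upstream intron holds 6581 nt and the downstream intron only 570 nt, and the 2 downstream clusters lie in that short intron. The 37-tag cluster ends 95 nt before the last exon, so it is nearer to that exon than to the 39-nt exon.
Upstream, 28 tags, chr4:90922274-90922303: cagagacuucaauauguUCAUguuucCCAC
Upstream, 55 tags, chr4:90922106-90922135: uaaaggcauggcaucuuuccUCAUcuUCAC
Downstream, 33 tags, chr4:90920647-90920676: cuggaauaucuuuauaCCACuauaugCCAC
Downstream, 37 tags, chr4:90920458-90920487: guuuugugcagcagauagugaUCAUuUCAU
The 4 clusters held 18 YCAY starts and 153 tags, 83 upstream and 70 downstream, so tags were divided about evenly between the sides. Capitals mark YCAY in the richest 30 nt of each.

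This arrangement was seen at few exons and in no other Elavl gene. Among 5718 skipped coding exons of genes with a NOVA2 cluster, 2.13% had NOVA2 intron clusters on both sides within 1500 nt, and 0.332% had at least 2 on each side, as Elavl2 has. The window and the minimum of 2 on each side were chosen after the Elavl2 clusters were seen. The shares were also not matched for the number of clusters per gene. The median gene with a NOVA2 cluster had 2, which cannot give 2 on each side, whereas Elavl2 had 20. The introns beside the matching exon held 0 clusters of either protein in Elavl3 (chr9:21829118-21829156, introns of 1460 and 5819 nt) and 0 in Elavl4 (chr4:109882345-109882383, introns of 1647 and 3038 nt). NOVA1 had 0 clusters there in Elavl2 as well. At the median intron ratio 1 of the 4 sites had enough NOVA2 tags for 10 NOVA1 tags, so a NOVA1 site of that ratio was not detectable as a cluster at the other 3. Inclusion of the exon was not measured in these data.

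**Figure D2:**
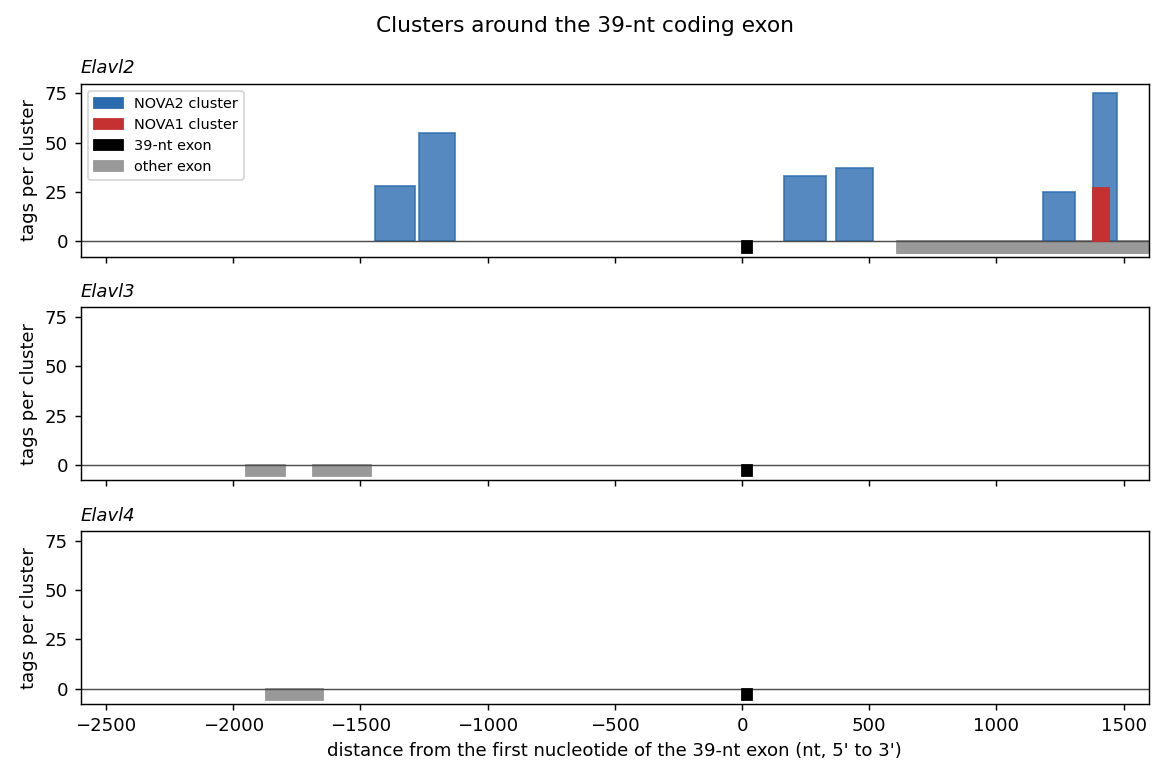
The 39-nt coding exon (black) of Elavl2, Elavl3 and Elavl4 is aligned at 0 on the horizontal axis, in nt, with other exons of coding transcripts in grey and cluster height in tags on the vertical axis. In Elavl2, 4 NOVA2 clusters (blue, 28 to 55 tags) flank the exon and the shared 3′ UTR site follows at the right with NOVA1 in red, while the panels of Elavl3 and Elavl4 hold no cluster.

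Most other intron sites lay far from exons. Within 500 nt of an annotated exon were 3 of 21 NOVA2 intron clusters of the family (14.3%), beside 10.4% of all NOVA2 intron clusters. These were the 2 downstream of the short Elavl2 exon and 1 in Elavl4. In the long Elavl2 intron the nearest cluster to an exon was 4518 nt away from it.

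Elavl4 had 3 clusters at 2 places. NOVA2 had 10 tags at chr4:109886361-109886459 and NOVA1 had 12 tags at chr4:109886396-109886478, a shared site 474 nt before the next exon by its NOVA2 border. The other NOVA2 cluster, with 18 tags at chr4:110021600-110021645, lay 2756 nt after the exon upstream of it. The count of 10 is the lowest in the list, and that of 18 is the median of all NOVA2 intron clusters.

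Elavl1 had 1 intron site, a NOVA2 cluster of 11 tags at chr8:4314383-4314484. It held 7 YCAY starts. This was the single one of the 33 clusters whose sequence has further copies in the genome. The search gave 141 further matches at 90% identity or more over at least 50% of its length. Reads of the site, and its YCAY, could therefore have come from elsewhere.

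The ratio of tags at shared positions compares the proteins at the same sequence. The counts are not scaled to library size, so a ratio is read only against other pairs of the same class. In the 3′ UTR of Elavl2 the log2 of NOVA1 over NOVA2 tags was −1.47, below the median of −0.40 and the lower quartile of −1.0 over 2146 one-to-one 3′ UTR pairs, and 12.5% of pairs were as low. In the long Elavl2 intron the log2 ratios were −2.09, −1.91 and −1.24, around the median of −2.04 over 3452 intron pairs (quartiles −2.63 and −1.36). The Elavl4 intron pair had a log2 ratio of 0.26, and 1.30% of intron pairs were as high. It rests on 12 NOVA1 and 10 NOVA2 tags, and that NOVA2 count is the lowest of any member pair. Both lists begin at 10 tags, so a NOVA1 partner of this cluster could not have had fewer tags than NOVA2. The threshold therefore places the pair among the high ratios, and its rank is not read as a trait of Elavl4.

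**Figure D3:**
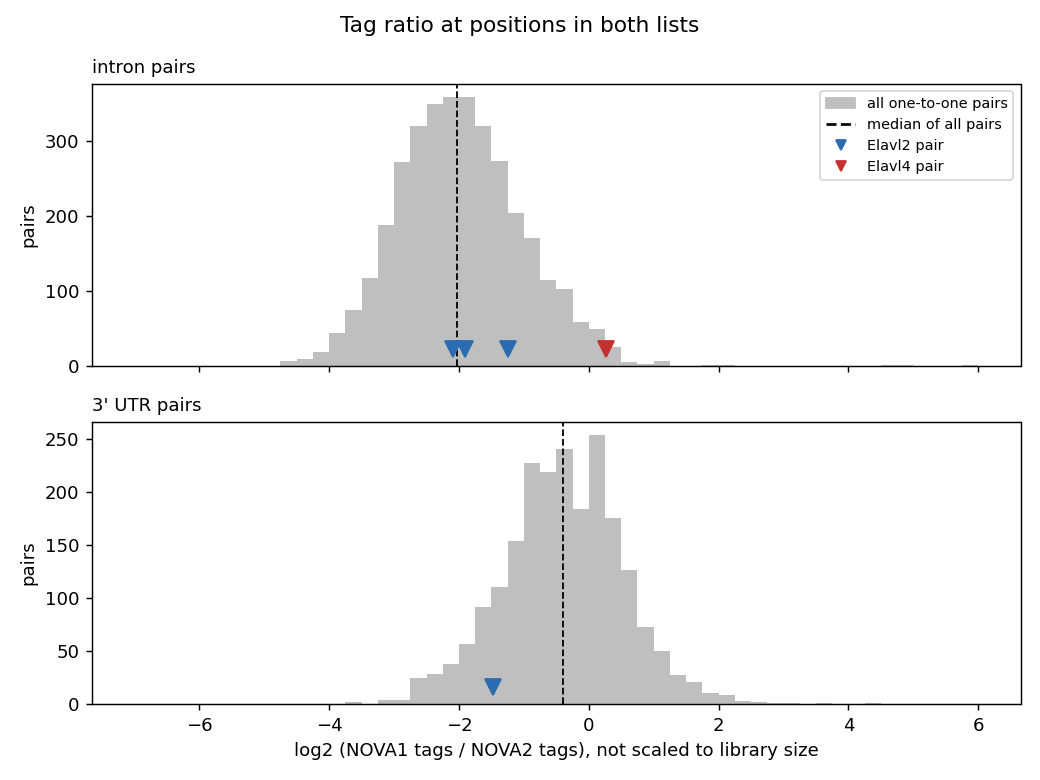
The histograms show the log2 ratio of NOVA1 to NOVA2 tags (horizontal axis) for all one-to-one pairs in introns (top) and 3′ UTRs (bottom), with the number of pairs on the vertical axis and a dashed line at the median. Triangles mark the Elavl2 pairs in blue and the Elavl4 pair in red, which lies at 0.26 in the right tail of the intron pairs. The threshold of 10 tags puts any intron pair with 10 NOVA2 tags in that tail.

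YCAY was counted per possible start position in the clusters and in flanks 200 to 500 nt away. Member NOVA2 clusters held 36.8 starts per 1000 positions, 2.13-fold over their flanks (1.72 to 2.63), beside 2.29-fold for all NOVA2 clusters. Member NOVA1 clusters held 41.4 per 1000, 2.73-fold over flanks (1.70 to 4.40), beside 2.02-fold for all. By class the values were closer. The 4 NOVA1 intron clusters gave 2.96-fold (1.75 to 5.03), beside 2.81-fold for all NOVA1 intron clusters. The 2 in 3′ UTRs gave 1.68-fold (0.525 to 5.36), beside 1.54-fold. The 21 NOVA2 intron clusters each held between 3 and 8 starts, and their 2.32-fold (1.85 to 2.92) was near the 2.41-fold of all introns. The 6 NOVA2 3′ UTR clusters held 17.0 per 1000, a fold of 1.19 (0.641 to 2.21) beside 1.71 for the class. That interval holds both no excess over the flanks and the value of the class. Within it the genes differed, with 0 starts in both Elavl2 clusters, 2 or 3 in each Elavl1 cluster and 4 in Elavl3.

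**Figure D4:**
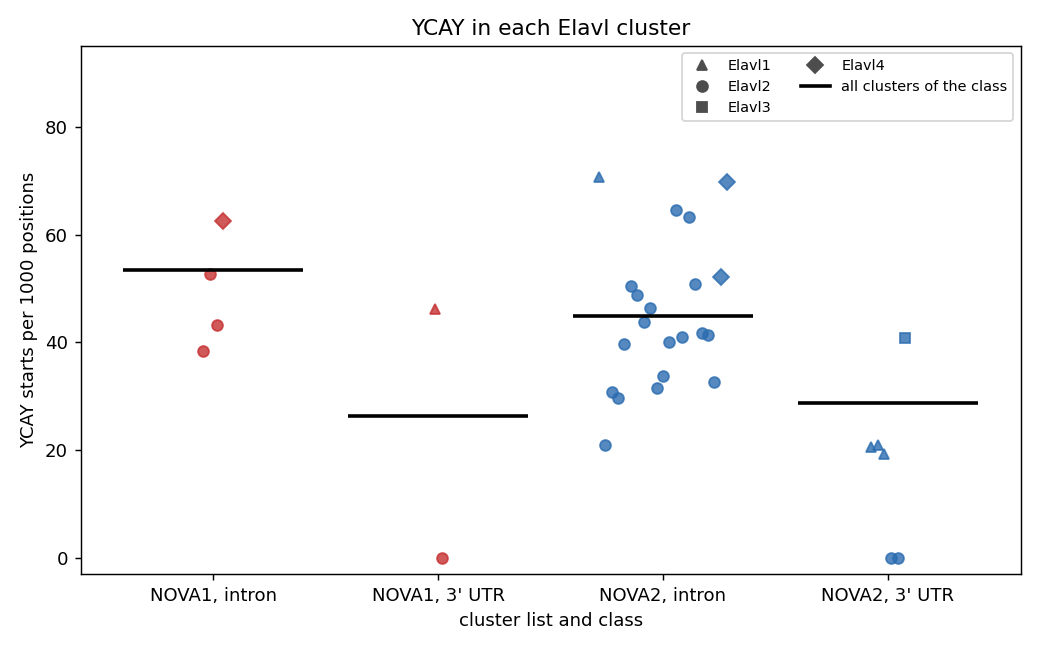
Each point is 1 Elavl cluster, with its YCAY starts per 1000 positions on the vertical axis, its list and class on the horizontal axis (NOVA1 red, NOVA2 blue) and its gene given by the marker. Black bars give the pooled value of all clusters of the class, and the Elavl2 points of both 3′ UTR columns lie at 0.

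Other genes of RNA-binding proteins were counted for comparison, from a list of 36 of which 35 were matched in the annotation. NOVA2 had clusters in 29 of the 35 and NOVA1 in 20, with medians of 4 and 1 clusters per gene. In all they held 650 NOVA2 clusters, of which 574 were intronic and 74 in a 3′ UTR, and 183 NOVA1 clusters, of which 118 were intronic and 63 in a 3′ UTR. Elavl2 stood in the upper part of this list, where 9 of the 35 had at least 20 NOVA2 clusters and 7 were as dense. Celf2, a splicing and stability regulator, had the most with 215, followed by Rbfox1, a neuronal splicing factor, with 150. Ptbp2, the neuronal polypyrimidine tract-binding protein, had 30, and Nova1 had 20. Elavl4 was like Mbnl2, another splicing regulator, which spans 156 kb and also had 2. Genes with 0 NOVA2 clusters were Ptbp1, Celf3, Celf5, Mbnl3, Khdrbs1 and Cpeb1, so Elavl3 with its single cluster was not at the bottom.

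**Figure D5:**
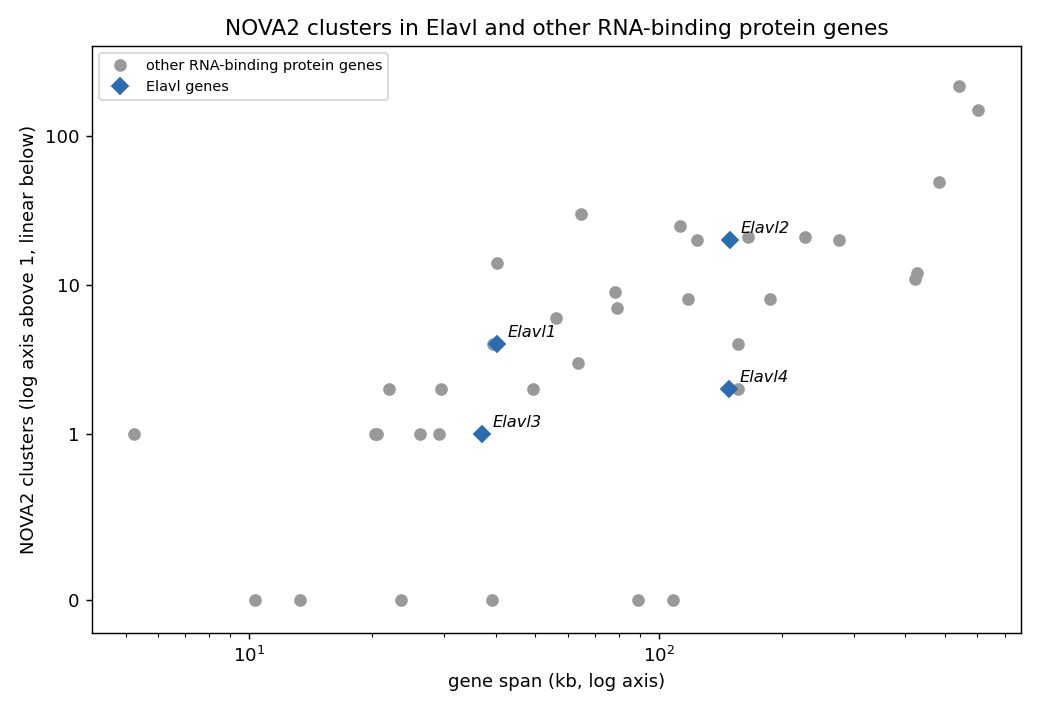
Each point is 1 gene of an RNA-binding protein, with its span in kb on a log axis and its number of NOVA2 clusters on an axis that is linear from 0 to 1 and log above. Blue diamonds mark the Elavl genes, and Elavl2 (20 clusters) and Elavl4 (2 clusters) lie above each other at nearly the same span.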

How the data were processed

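The authors aligned HITS-CLIP reads to mm9 with Novoalign (version not given in the sources used here), removed PCR duplicates, kept clusters with tags from 2 or more of a protein's 3 libraries, and deposited those with at least 10 tags. The deposited value is a tag count per cluster, pooled by the authors and not scaled to library size, and the study names the measure behind its threshold peak height. The lists do not label the column, and if it is a depth, sums of tags are sums of depths. The lists sum to 304703 NOVA1 and 1309270 NOVA2 tags, which are totals over retained clusters and not library depths.

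Clusters were assigned to GENCODE vM1 gene spans by same-strand overlap of at least 1 nt, and each lay in 1 gene on its strand. The class covering most nucleotides was used, with coding sequence placed before 3′ UTR, then 5′ UTR, then noncoding exon and last intron. Clusters sharing at least 1 nt on a strand were called shared. Distances to exons used the exons of all transcripts, of which 1 noncoding Elavl2 transcript extends the 39-nt exon upstream. YCAY was counted on the cluster strand, flanks being 200 to 500 nt away. Clusters named were the 5 of highest tag count per gene and list, exonic clusters and NOVA1 clusters without NOVA2 overlap, together with those beside the 39-nt exon, chosen later. Members, lists and thresholds were chosen with earlier results of these data known. With pooled counts no test was run. Overlap, class and motif functions were tested on simulated data. Copies were searched with BLAST+ 2.17.0, and other steps used Python 3.11.15, NumPy 2.4.6 and pysam 0.24.0. Alternatives were other overlap, class and pairing rules, higher tag thresholds, a reduced NOVA2 list, other flanks, 10 kb of downstream sequence and scaling of tags. Protein sequences, single libraries and RNA-seq data were not analysed here.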

Additional observations from a re-analysis of the deposited data

How the results depend on the processing

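Of 40 alternative values for 10 results, 32 stayed within the counting interval of the reported value or, for the median log2 ratios, equalled it. With 20 or more tags required, 1 NOVA1 and 18 NOVA2 member clusters were left. The NOVA1 values then rest on the Elavl2 3′ UTR site alone, with 100% shared, 0.0% intronic, 100% in the 3′ UTR and a YCAY fold of 0.0. At that threshold 5.56% of member NOVA2 clusters were shared. With only the strongest NOVA2 clusters kept, as many as the NOVA1 list has, 8 members of at least 31 tags were left and 37.5% of them were shared. Dividing tags by the sum of each list moved every log2 ratio up by 2.10, so that the intron pairs had a median of 0.53 and the 3′ UTR pair 0.63. The sign of a ratio therefore depends on scaling, while the order of pairs does not. No cluster lay on the opposite strand or within 10 kb downstream of a member gene, so those alternatives changed nothing. No paired analysis was possible because each list holds 1 pooled count per cluster, and for the same reason no library could be left out.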
